A study of Homo sapiens with 2 samples.

Results

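The 5 genes of conjugation and drug metabolism, SULT2A1, SULT1A1, UGT2B10, ALDH1A1 and HNMT, were followed probe set by probe set in HepG2 cells, a human hepatoma line, after knockdown of TUC338. Every probe set annotated to 1 of these symbols alone was taken, which gave 45 of the 45200 probe sets in the table and 5 of its 2792 genes. The knockdown cells had received an LNA against TUC338 and the control cells a control LNA. TUC338 is a noncoding RNA, and an LNA (locked nucleic acid) is a modified oligonucleotide that pairs tightly with its target. Both groups were HepG2 on collagen-coated plates, and each was measured on 1 array, so every difference below is between 2 arrays, with no replicate and no test. SULT2A1 had 10 probe sets, SULT1A1 8, UGT2B10 3, ALDH1A1 13 and HNMT 11. On this exon array a probe set covers about an exon, so the spread over probe sets is that of parts of 1 transcript on the same 2 arrays.

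Hepatocytes clear steroids, bile acids, drugs and amines by making them more soluble or inactive. Sulfotransferases move a sulfate group, and UDP-glucuronosyltransferases a glucuronic acid, onto their substrates, and methyltransferases and aldehyde dehydrogenases inactivate or convert others. SULT2A1 sulfates dehydroepiandrosterone and bile acids, SULT1A1 sulfates small phenols, and UGT2B10 attaches glucuronic acid to tertiary amine drugs. ALDH1A1 oxidises retinal to retinoic acid and clears other aldehydes in the cytosol. HNMT methylates histamine inside cells and thereby inactivates it.

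The RefSeq promoter table (GRCh38.p14) matched 4 of the 5 genes, all except SULT1A1, and the 250 bases before each start are shown for these 4. Capitals mark matches on either strand to nuclear receptor half-sites, whose letters were AGGTCA or the variant AGTTCA or the variant GGGTCA, to the HNF4 element CAAAGTCC, to a CCAAT box or to the TATA box TATAAA. The stretches lie at chr19:47886316-47886565 on the minus strand for SULT2A1, at chr4:68815744-68815993 on the plus strand for UGT2B10, at chr9:72953054-72953303 on the minus strand for ALDH1A1 and at chr2:137964223-137964472 on the plus strand for HNMT.
SULT2A1: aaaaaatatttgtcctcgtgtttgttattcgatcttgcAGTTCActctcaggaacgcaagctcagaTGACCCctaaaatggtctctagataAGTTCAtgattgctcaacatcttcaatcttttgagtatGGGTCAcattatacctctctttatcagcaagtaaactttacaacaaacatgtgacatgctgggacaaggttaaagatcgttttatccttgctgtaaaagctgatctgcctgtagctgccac
UGT2B10: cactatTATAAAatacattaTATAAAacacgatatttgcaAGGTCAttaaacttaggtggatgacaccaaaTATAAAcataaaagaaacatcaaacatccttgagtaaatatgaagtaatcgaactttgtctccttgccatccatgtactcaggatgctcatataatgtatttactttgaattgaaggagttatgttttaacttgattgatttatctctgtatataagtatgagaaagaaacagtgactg
ALDH1A1: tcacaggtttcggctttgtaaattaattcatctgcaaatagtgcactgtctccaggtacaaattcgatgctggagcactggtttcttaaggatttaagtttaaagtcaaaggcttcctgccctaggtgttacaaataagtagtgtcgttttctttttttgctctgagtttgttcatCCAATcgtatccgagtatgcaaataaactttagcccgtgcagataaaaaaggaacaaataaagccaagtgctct
HNMT: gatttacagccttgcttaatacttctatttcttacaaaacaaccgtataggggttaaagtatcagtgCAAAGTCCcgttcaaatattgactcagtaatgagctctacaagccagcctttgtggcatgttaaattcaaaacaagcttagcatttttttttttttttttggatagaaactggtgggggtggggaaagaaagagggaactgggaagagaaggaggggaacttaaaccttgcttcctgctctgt

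The 4 stretches held different motifs. In SULT2A1, AGTTCA stood 212 to 207 and 159 to 154 bases before the start and GGGTCA 121 to 116 bases before it, with a further GGGTCA on the opposite strand at 184 to 179, printed as its complement. In UGT2B10, AGGTCA stood 210 to 205 bases before the start, and TATAAA occurred 3 times, the nearest at 179 to 174 bases. ALDH1A1 had CCAAT at 74 to 70 bases, and HNMT had CAAAGTCC at 183 to 176 bases. No match overlapped another. Of 35116 RefSeq promoters cut to the same 250 bases, 12.1% held AGGTCA, 8.8% AGTTCA, 12.1% GGGTCA, 1.02% CAAAGTCC, 32% CCAAT and 10.7% TATAAA. These matches describe letters only, and no binding was measured.

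The knockdown array was brighter as a whole, with a median intensity over all probe sets of 507 against 422 in the control. The mean over a gene's probe sets was higher on the knockdown array by a median of 0.28 (log2), or 1.22-fold, over the 2792 genes of the table. Shares of all genes or probe sets given below refer to this table alone. Differences below are therefore given relative to this median gene unless called deposited values, and a deposited value is larger by 0.28. The means of genes with at least 4 probe sets had an SD of 0.30 from gene to gene, and probe sets of 1 gene a pooled SD of 0.28. The table has 0 probe sets annotated to TUC338, so its own level was not measured here by name. Of 15 hepatocyte and hepatoma markers 7 are in the table. The brightest probe sets of ALB, APOB, TF, FGG and GPC3 stood between percentiles 99.0 and 100 of all genes' brightest probe sets, a rough order since probe sets differ in affinity, that of APOH at percentile 96.0 and that of CPS1 at percentile 50.4. The fibroblast genes COL1A1 and PDGFRB stood at 25.5 and 9.28, and none of the 4 biliary, 4 leukocyte or 4 endothelial markers is in the table. A marker's absence from the 2792 genes of the table says nothing about its level. The mean differences of the 7 hepatocyte markers relative to the median gene ran from -0.42 ± 0.32 for CPS1 to 0.27 ± 0.29 for FGG (SD over probe sets), with 0.26 ± 0.34 for APOH. COL1A1 had -0.90 ± 0.33 and PDGFRB 0.22 ± 0.38, and the part of these shifts in the differences below was not tested.

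By the mean over probe sets, SULT2A1 had the largest difference of the 5 genes and SULT1A1 was the only one below the median gene. At the brightest probe set of each gene the order of the top pair turned, with 0.85 for HNMT and 0.62 for SULT2A1. These 2 values were centred on the median brightest probe set over genes, 0.20 in deposited values. Relative to the median gene at 0.28, the same probe sets stood at 0.76 for HNMT and 0.54 for SULT2A1. The 5 mean differences were 0.61 ± 0.21 for SULT2A1, 0.44 ± 0.29 for HNMT, 0.28 ± 0.14 for UGT2B10, 0.16 ± 0.30 for ALDH1A1 and -0.25 ± 0.30 for SULT1A1 (log2, SD over probe sets). From SULT2A1 down to ALDH1A1, neighbours in this order differed by less than the larger of their SDs, while ALDH1A1 and SULT1A1 differed by more than either. In RNA from whole cultures, fewer cells with a transcript and less of it per cell cannot be told apart. By this mean SULT2A1 alone reached 1.5-fold, and 2.27% of the 2771 genes with at least 2 probe sets were that much higher by the same measure. HNMT passed 1.5-fold as well in deposited values, with a mean of 0.72 or 1.65-fold, and at its brightest probe set. SULT2A1 itself came to 0.42, short of 1.5-fold, when the deposited values were read as log2 rather than as natural logs. Past 1.5-fold in the other direction were 0 of the 5, against 3.72% of those genes. At single probe sets, 10 of the 45 were at least 1.5-fold above the median gene, against 6.15% of all single-symbol probe sets. Of these 10, SULT2A1 had 6, HNMT 3 and ALDH1A1 1, and probe sets of 1 gene are not independent. As far below the median gene were 0 of the 45, against 8.19%. In deposited values 13% of genes exceeded 1.5-fold upward and 0.938% downward, so 93.3% of such genes were higher in deposited values, against 38.0% relative to the median gene. In deposited values 40 of the 45 probe sets, or 88.9%, were higher on the knockdown array, where 75.2% of all single-symbol probe sets were. Relative to the median gene 32 of the 45, or 71.1%, were above it, against 47.9% of all single-symbol probe sets.

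**Figure D1:**
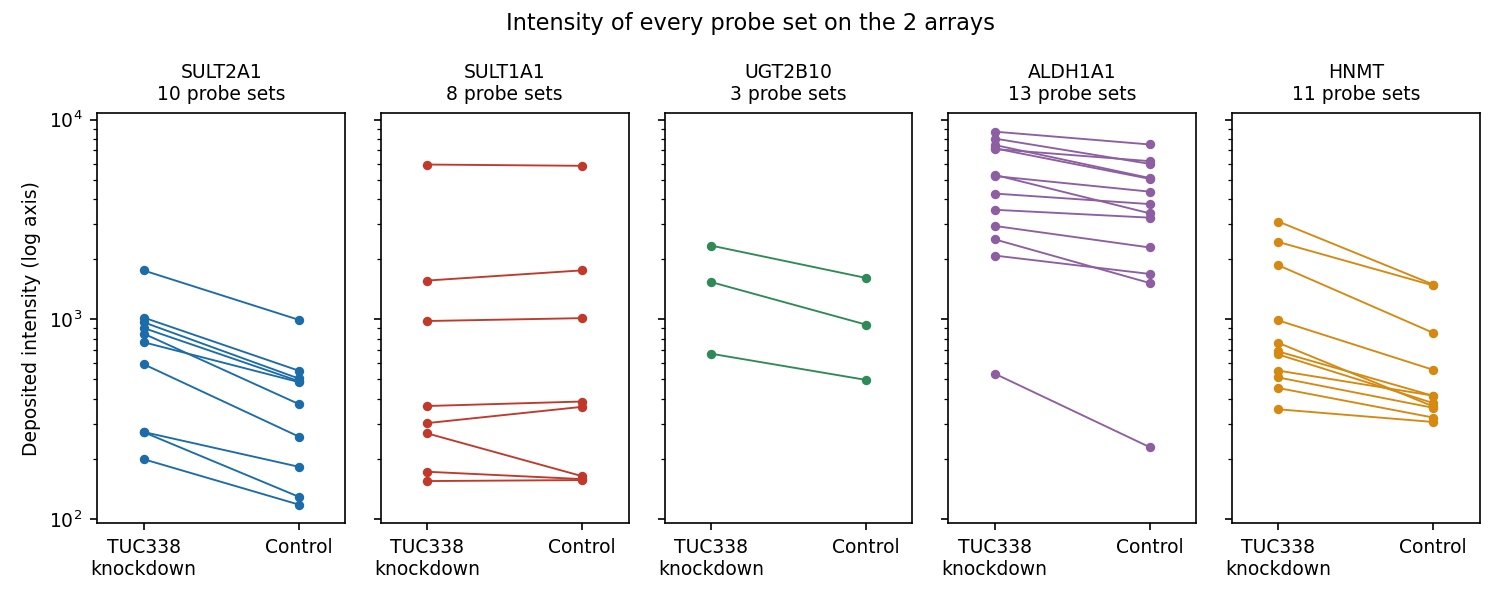
Deposited intensity (log axis) of each single-symbol probe set on the knockdown array (left) and the control array (right), with a line joining the 2 values of 1 probe set. All 10 probe sets of SULT2A1, all 3 of UGT2B10, all 13 of ALDH1A1 and all 11 of HNMT were brighter on the knockdown array, against 3 of 8 for SULT1A1. The knockdown array was brighter as a whole, and 75.2% of all single-symbol probe sets were higher on it. The share of genes with every probe set brighter was not counted.

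SULT2A1, the steroid and bile acid sulfotransferase, had intensities from 199 to 1754 over its 10 probe sets in the knockdown, with a median of 807, against 118 to 993 in the control, with a median of 430.2. Its brightest probe set, 3866787, read 1754 in the knockdown and 993 in the control. Probe set 3866795 read 1019 in the knockdown and 552 in the control. Every probe set was brighter in the knockdown, as were 75.2% of all single-symbol probe sets. Even so, the ranges over the SULT2A1 probe sets overlapped between the arrays.

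The difference of SULT2A1 ran from 0.29 at probe set 3866793 to 0.92 at probe set 3866796, so all 10 lay above the median gene. Of 967 genes with 8 to 13 probe sets, 8.79% had every probe set above it. At probe set 3866796 the intensity was 595 in the knockdown against 258 in the control, and at 3866794 it was 846 against 376. At 6 of the 10 probe sets SULT2A1 was at least 1.5-fold above the median gene, against 6.15% of all single-symbol probe sets. The mean of 0.61 corresponds to 1.53-fold, or 1.86-fold in deposited values. Without probe set 3866796, or without 3866794, the mean was 0.58 and just short of 1.5-fold, so the place of SULT2A1 past that fold needed both. Of the 2742 genes with at least 4 probe sets, 56 including SULT2A1, or 2.04%, had a mean as high.

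HNMT, the histamine methyltransferase, had intensities from 354 to 3085 over its 11 probe sets in the knockdown, with a median of 689, against 306 to 1491 in the control, with a median of 413. All 11 were brighter in the knockdown, as were 75.2% of all single-symbol probe sets. The brightest, 2507920, read 3085 in the knockdown against 1491 in the control, a deposited difference of 1.05. Probe set 2507908 read 1863 against 854 (1.13), and 2507903 read 761 against 365 (1.06).

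These 3 were the only HNMT probe sets at least 1.5-fold above the median gene, against 6.15% of all single-symbol probe sets. The other 8 had relative differences from -0.07 at probe set 2507926, which read 354 in the knockdown against 306 in the control, to 0.54 at 2507922. Within HNMT the difference was larger at brighter probe sets, with a Spearman rho of 0.73 over the 11 probe sets, which share the 2 arrays. Of 2141 genes with at least 8 probe sets, 2.29% had a rho of that size in either direction. These genes were not matched to HNMT in number of probe sets. Since a large rho arises less easily over many probe sets, this share may be too low for genes of its size. The brightest probe set stood 0.76 above the median gene, or 0.85 when centred on the median brightest probe set over genes. The mean over probe sets was 0.44, or 1.36-fold, a mean reached by 5.14% of the 2742 genes.

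UGT2B10, the amine glucuronosyltransferase, had 3 probe sets of its own. Probe set 2729911 read 2338 in the knockdown and 1609 in the control, 2729905 read 1535 against 940 and 2729893 read 672 against 496. All 3 were brighter in the knockdown, as were 75.2% of all single-symbol probe sets. All 3 also lay above the median gene, by 0.26, 0.42 and 0.15. Of the 17 genes with 3 probe sets, 5, or 29.4%, had all of them above the median gene. The mean of 0.28 ± 0.14 corresponds to 1.21-fold, or 1.48-fold in deposited values.

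Close paralogs share much of the UGT2B10 sequence, and 5 further probe sets are annotated to UGT2B10 together with UGT2B11, UGT2B28 or UGT2B7. They were not counted among the 45. All 5 lay above the median gene, by 0.09 to 0.50, with a mean of 0.31 ± 0.19. The highest of them, 2729896, read 4075 in the knockdown and 2361 in the control. Signal from paralogs at the 3 probe sets annotated to UGT2B10 alone was not tested.

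**Figure D2:**
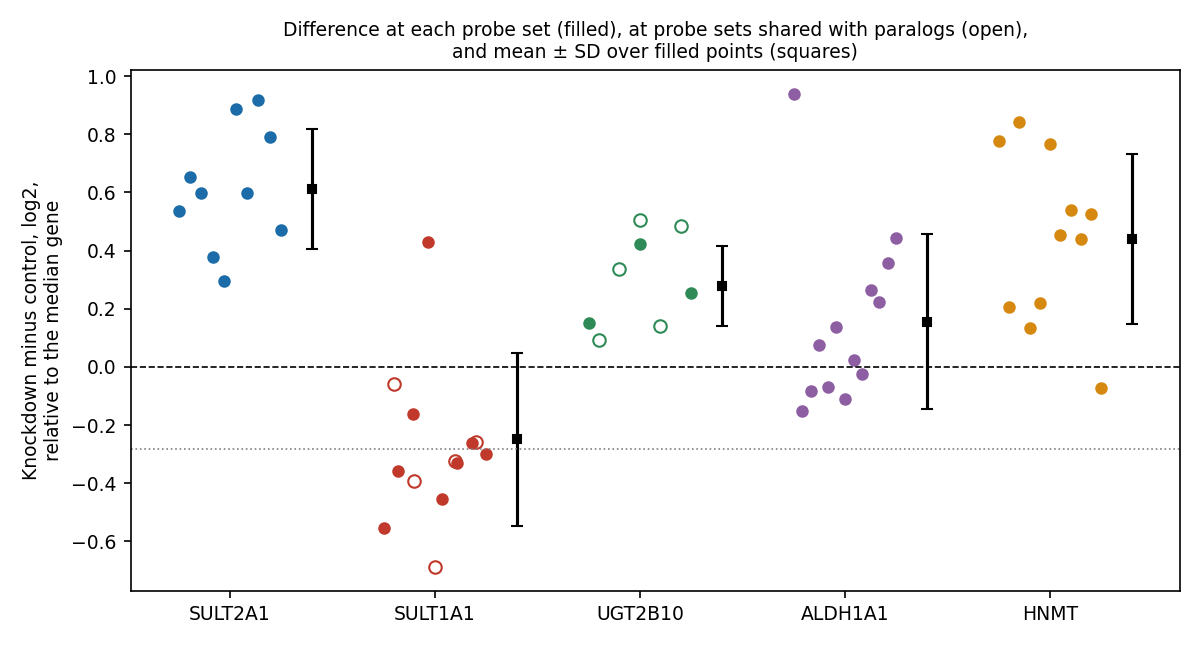
Difference between the knockdown and the control array (log2), relative to the median gene (dashed line at 0), for each probe set of 1 symbol (filled), for probe sets that also carry a paralog's symbol (open), and as mean ± SD over the filled points (squares). The dotted line is a deposited difference of 0, and the filled points of SULT2A1 lie between 0.29 and 0.92 while 7 of 8 of SULT1A1 lie below 0.

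ALDH1A1, the retinal dehydrogenase, had intensities from 534 to 8697 over its 13 probe sets in the knockdown, with a median of 5211, against 229 to 7503 in the control, with a median of 3772. All 13 were brighter in the knockdown, as were 75.2% of all single-symbol probe sets. Relative to the median gene, however, 8 of the 13 were above and 5 below. The mean of 0.16 ± 0.30 corresponds to 1.11-fold, and 28.2% of the 2742 genes had a mean as high.

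Probe set 3209736, the dimmest of the gene, read 534 in the knockdown and 229 in the control and stood 0.94 above the median gene, the only ALDH1A1 probe set past 1.5-fold. Without it the mean was 0.09 ± 0.19 over 12 probe sets, 1.06-fold. Among the brightest, 3209746 read 8697 in the knockdown and 7503 in the control (-0.07 relative to the median gene), and 3209742 read 7115 against 6189 (-0.08). Taken by probe-set number, the last 4 of the gene stood highest after 3209736. They had 0.27 at 3209756, 0.22 at 3209757, 0.36 at 3209759 and 0.44 at 3209762, where the 8 probe sets numbered before them, without 3209736, had -0.15 to 0.14.

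Over all 13 probe sets the Spearman rho of the difference with the probe-set number was 0.42. Of the 2141 genes with at least 8 probe sets, again not matched in number of probe sets, 18.8% had one of that size in either direction. Without 3209736, a choice made after its value was seen, the rho was 0.81 over 12, and no share of genes was computed beside it. For SULT2A1 the rho was 0.21, for SULT1A1 0.33 and for HNMT -0.30. The places of the probe sets in the transcripts were not used here.

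**Figure D3:**
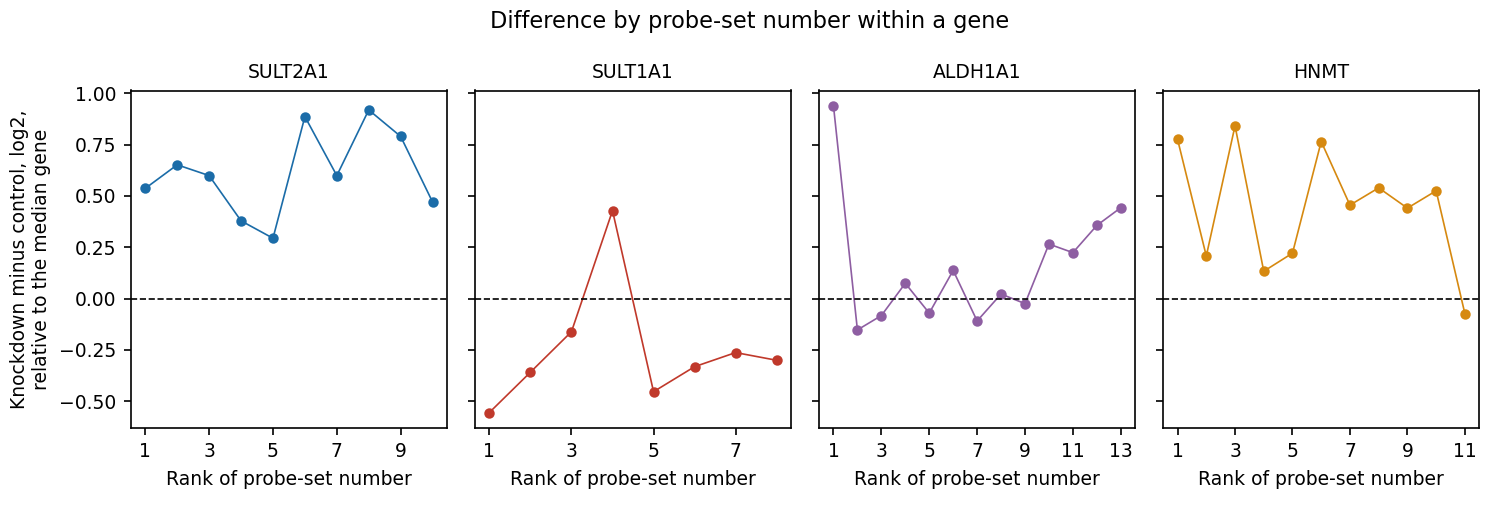
Difference between the knockdown and the control array (log2, relative to the median gene, dashed line) against the rank of the probe-set number within SULT2A1, SULT1A1, ALDH1A1 and HNMT, 1 point per probe set. In ALDH1A1 the first probe set stands at 0.94 and the last 4 between 0.22 and 0.44, and in SULT1A1 the fourth stands alone above 0.

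SULT1A1, the phenol sulfotransferase, had intensities from 155 to 5951 over its 8 probe sets in the knockdown, with a median of 335, against 156 to 5865 in the control, with a median of 375. Its brightest probe set, 3654642, read 5951 in the knockdown and 5865 in the control. The next, 3654632, read 1561 against 1756, and 3654634 read 979 against 1012. In deposited values 3 probe sets were brighter and 5 dimmer in the knockdown.

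Relative to the median gene 7 of the 8 SULT1A1 probe sets were below, from -0.16 at 3654620 to -0.55 at 3654618. The exception was 3654629, which read 268 in the knockdown and 163 in the control and stood 0.43 above. The mean was -0.25 ± 0.30, or 0.841-fold relative to the median gene. In deposited values it was 0.03, or 1.02-fold, so the direction flips with the centring. Without 3654629 the mean was -0.35 ± 0.13 over 7 probe sets and the deposited mean -0.06. Of the 2742 genes with at least 4 probe sets, 18.8% had a mean as low.

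A further 5 probe sets carry SULT1A1 together with SULT1A2, SULT1A3 or SULT1A4, whose sequences are close to it. All 5 were below the median gene, from -0.69 to -0.06, with a mean of -0.34 ± 0.23 and a deposited mean of -0.06. The lowest, 3654643, read 855 in the knockdown and 1132 in the control. The signal of the single-symbol probe sets cannot be told apart from that of paralogs here. The 2 sulfotransferases had little overlap, since the lowest SULT2A1 probe set, at 0.29, exceeded every single-symbol SULT1A1 probe set except 3654629.

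**Figure D4:**
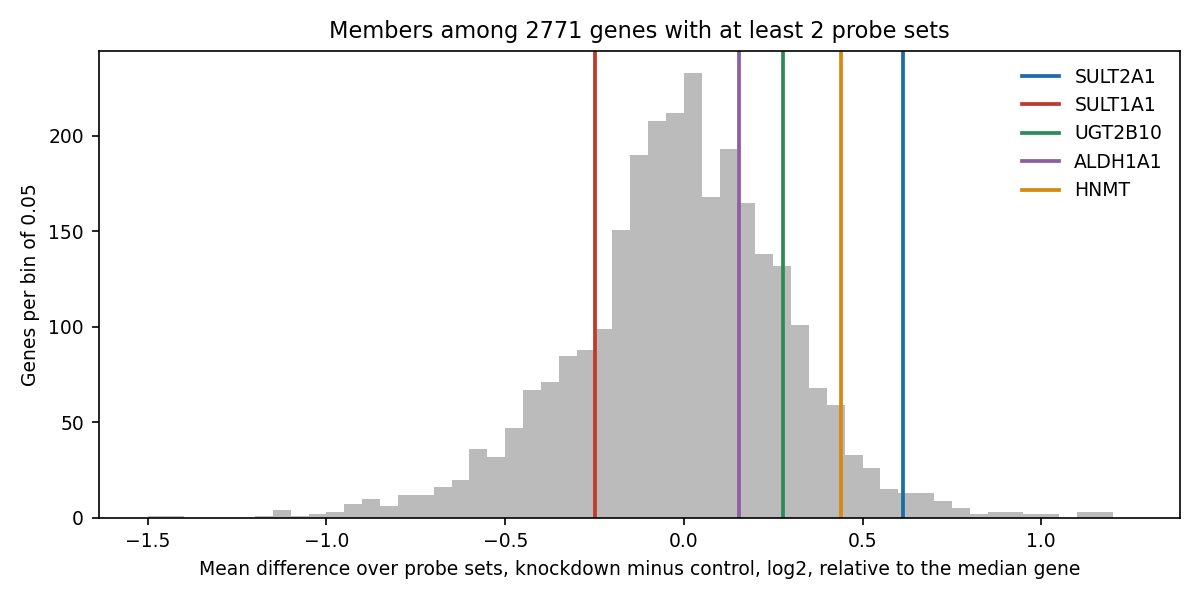
Number of genes per bin of 0.05 in the mean difference over probe sets between the knockdown and the control array (log2, relative to the median gene), for the 2771 genes with at least 2 probe sets, with the 5 genes as vertical lines. SULT2A1 at 0.61 lies in the upper tail and HNMT at 0.44 beside it, while SULT1A1 at -0.25 and ALDH1A1 at 0.16 lie in the body of the distribution.

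Over all probe sets the difference was slightly smaller at brighter ones, with medians of 0.02, -0.01, -0.02 and -0.06 over 4 equal classes of single-symbol probe sets from the dimmest to the brightest. Of the 13 ALDH1A1 probe sets 12 were in the brightest class, against 1 of 10 for SULT2A1. Set against probe sets within 0.25 (log2) of their own brightness, the means were 0.62 for SULT2A1, 0.47 for HNMT, 0.33 for UGT2B10, 0.22 for ALDH1A1 and -0.24 for SULT1A1, each within 0.07 of the value above.

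Other genes of these pathways were taken from 7 lists with 278 genes, of which 47 had at least 2 probe sets in the table. Their median difference was 0.05, beside 0.0010 over all 2771 genes, and 31 lay above and 16 below the median gene. Of the 47, 2, or 4.26%, passed 1.5-fold upward, against 2.27% of all genes, and 1 of the 47 passed it downward, against 3.72%. The values below are means over probe sets, and no difference among the lists was tested.

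Of the genes that supply or undo glucuronidation, 3 of 4 lay above the median gene, with a list median of 0.21. UGT2A3, a relative of UGT2B10, had 0.31 ± 0.22 with each of 8 probe sets above it, and SLC35D1, which carries UDP-glucuronic acid into the endoplasmic reticulum, had 0.27 ± 0.16. UGP2, which makes UDP-glucose, had 0.14 ± 0.28, and GUSB, the lysosomal glucuronidase that removes glucuronic acid, -0.02 ± 0.28. From the sulfation list ARSB, a lysosomal sulfatase, was the only gene with at least 2 probe sets, at -0.07 ± 0.15.

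Of 7 aldehyde, alcohol and retinoid dehydrogenases beside ALDH1A1, 4 were above and 3 below the median gene, with a median of 0.0025. ADH6, a class V alcohol dehydrogenase, was 0.68 ± 0.24 higher at all of 12 probe sets, or 1.60-fold, with intensities from 197 to 1719 in the knockdown against 89.8 to 700 in the control. RDH11, a retinal reductase of the retinoid cycle, had 0.41 ± 0.17 and all of 11 probe sets above. ALDH18A1, the mitochondrial enzyme of proline synthesis, was below at all of 20 probe sets, by -0.58 ± 0.21, just short of 1.5-fold. AKR1D1, which reduces steroid double bonds, had -0.24 ± 0.19.

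Of the histamine and methylation list, 3 genes had at least 2 probe sets. AHCYL1, a relative of adenosylhomocysteinase, had 0.25 ± 0.26. The S-adenosylmethionine synthetases MAT2A and MAT1A had 0.02 ± 0.22 and -0.12 ± 0.29. HNMT thus stood above all 3 by mean, and by more than its SD over MAT2A and MAT1A.

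Of 16 cytochromes P450 and other phase I enzymes 13 lay above the median gene, with a median of 0.13 and none past 1.5-fold in either direction. CYP19A1, the aromatase that makes oestrogens, had 0.46 ± 0.15 with all of 14 probe sets above. CYP4F2, a fatty acid hydroxylase, and CYP27A1, a sterol hydroxylase of bile acid synthesis, both had 0.29, with SDs of 0.23 and 0.12. CYP2S1, an extrahepatic P450, had -0.50 ± 0.38. In the glutathione list, GGT1, the gamma-glutamyltransferase of the cell surface, was the 1 gene at least 1.5-fold lower, by -0.72 ± 0.24 over only 2 probe sets. In the same list GSS, glutathione synthetase, had 0.28 ± 0.18 with 11 of 12 above, the microsomal transferase MGST1 -0.15 ± 0.23 and GSTM3 0.03 ± 0.37.

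Among 12 nuclear receptors and regulators 7 were above and 5 below the median gene, with a median of 0.05. RORA, an orphan nuclear receptor of lipid metabolism and the circadian clock, was the highest of the 47 genes. Its intensities ran from 150.1 to 673 in the knockdown against 67.5 to 291 in the control, and its mean of 1.10 ± 0.27, or 2.15-fold, came with all of 10 probe sets above the median gene. RXRA, the shared partner of many nuclear receptors, had -0.36 ± 0.28 with 0 of 10 above. ARNT, the partner of the dioxin receptor, had -0.32 ± 0.22 with 2 of 23 above. NR1H3, the oxysterol receptor LXR alpha, had 0.23 ± 0.38.

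**Figure D5:**
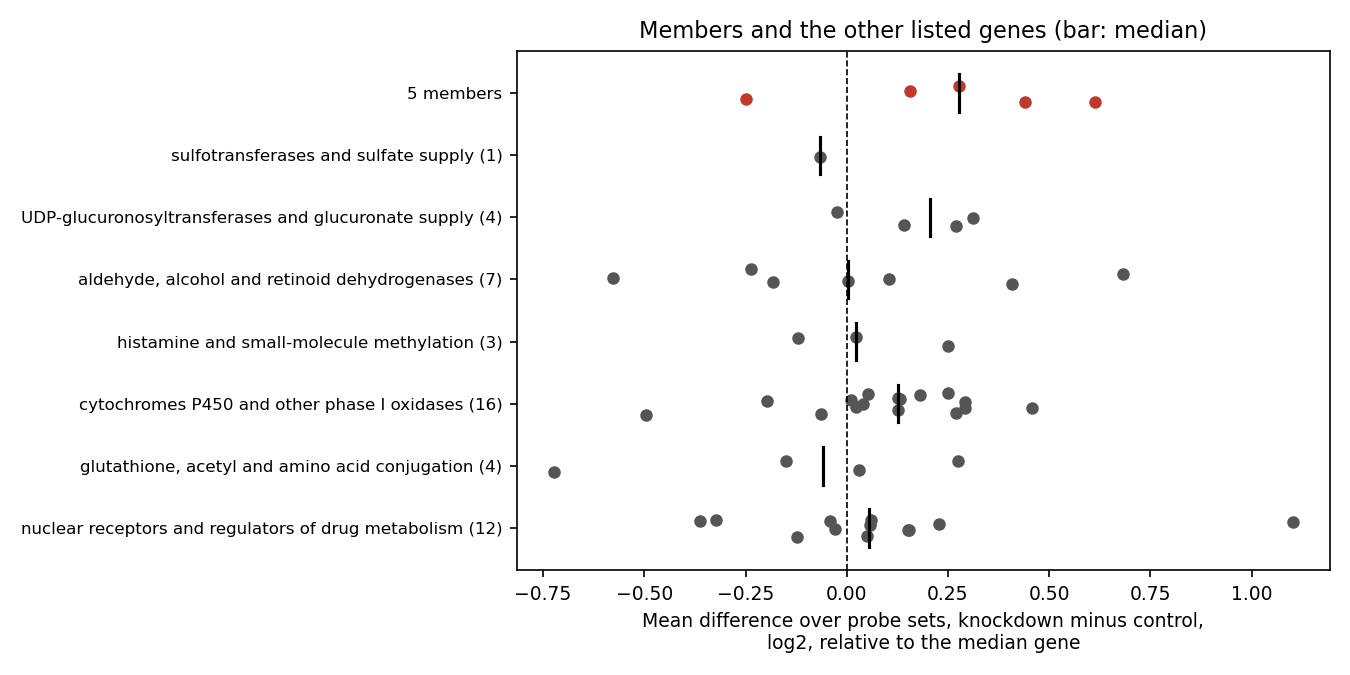
Mean difference over probe sets between the knockdown and the control array (log2, relative to the median gene, dashed line), 1 point per gene, for the 5 genes (red) and the 7 lists of other genes (grey, number of genes in brackets), with the median of each row as a bar; vertical scatter has no meaning. RORA at 1.10 and ADH6 at 0.68 are the only listed genes above SULT2A1 at 0.61.

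Nearest to each gene in its mean log2 levels on the 2 arrays, by straight-line distance over genes with at least 4 probe sets, were BBX and BLCAP for SULT2A1, MBNL1 and KLHL5 for HNMT, SEL1L and UGT2A3 for UGT2B10, THBS1 and APOH for ALDH1A1, and QKI and GIPC1 for SULT1A1. The distances lay between 0.0085 for MBNL1 and 0.08 for APOH. This likeness rests on 2 values per gene, and since probe sets differ in affinity, near levels need not mean near amounts of RNA.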

How the data were processed

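The authors deposited 1 table with a value per probe set on each of 2 arrays; its normalization, summary method and software were not given in the sources used here. These deposited values were read as natural log intensities, because their exponentials under 2000 fell on multiples of 0.5 plus 1 fixed residue in 1154 of 41367 cases on the knockdown array and 1167 of 42089 on the control array (fullest bin of width 0.001, against means of 82.7 and 84.2), and were divided by the natural log of 2. Read as log2 values no such spacing appeared, with 117 and 115 in the fullest bins (mean 90.4).

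The probe annotation gave 1 symbol for 42575 probe sets. Of the 2795 symbols, 331 were updated through the RefSeq gene table. A gene was the mean over its single-symbol probe sets, knockdown minus control, less the median over 2792 genes. The groups came from the transfection label. With 1 array each no test was made, and the number of arrays limits the precision. A fold of 1.5 was used for counts. The 5 genes and the lists were chosen with earlier results of these data known, and the motifs with the promoters in view. The named genes are the 5 genes, listed genes past 1.5-fold, otherwise up to 4 per list with the largest differences, markers, paralogs and the 2 nearest genes. Alternatives were another centring, quantile and lowess normalization (span 0.3), the log base, the brightest probe set or median, bright probe sets alone, and leaving out values present on both arrays. Each alternative other than deposited values was centred on its own median gene. The gene summary was tested on simulated data. Python 3.11.15, pandas 2.3.3, numpy 2.4.6, scipy 1.17.1 and statsmodels 0.14.6 were used.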

Additional observations from a re-analysis of the deposited data

How the results depend on the processing

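Of 64 values over 8 results and 8 alternative settings, 54 kept their direction and moved by less than the SD over probe sets (for the list median, the SD over the listed genes; for counts, by under 1.5 times), 9 moved further and 1 reversed. In deposited values every gene shifted by the same 0.28. SULT1A1 turned to 0.035, and SULT2A1 and UGT2B10 came to 0.90 and 0.56. HNMT and ALDH1A1 shifted as much and counted as kept only because their SDs over probe sets, 0.29 and 0.30, were larger than the shift. HNMT came to 0.85 at its brightest probe set. The genes at least 1.5-fold higher, 63 in the main setting, numbered 360 in deposited values, 16 with values read as log2 and 144 at the brightest probe set. Those at least 1.5-fold lower, 103 in the main setting, numbered 26, 30 and 192 under these settings. Deposited values keep the offset between the arrays, a log2 reading shrinks every difference, and a single probe set is not averaged. Over the 8 alternatives SULT2A1 ranged from 0.42 to 0.90, HNMT from 0.30 to 0.85, UGT2B10 from 0.19 to 0.56, ALDH1A1 from 0.01 to 0.44, SULT1A1 from -0.33 to 0.03 and the list median from 0.04 to 0.34. No paired analysis was possible because each group has 1 array and the labels give no replicate numbers. No detection calls or background values were used, so it is not known how many of the dim probe sets stood above background.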

Other observations

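In 10 of the 47 listed genes, or 21.3%, the mean over probe sets and the brightest probe set lay on opposite sides of the median gene, beside 20.4% of all genes with at least 2 probe sets. Brightest probe sets were here centred on their own median over genes, 0.20 in deposited values. On that scale SULT2A1, SULT1A1, UGT2B10, ALDH1A1 and HNMT were on the same side by both, ALDH1A1 barely at 0.01. Relative to the median gene at 0.28, the brightest ALDH1A1 probe set stood at -0.07, on the other side from its mean. Among the 10, UGP2 had a mean of 0.14 and -0.05 at its brightest probe set, ALDH2 0.10 and -0.09, and MAT1A -0.12 and 0.36. These 3 were chosen after their values were seen.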
